A study of Drosophila melanogaster with 12 samples.

Results

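Genes of synaptic vesicle endocytosis were followed through an immunopurification of the RNA-binding protein Pumilio (Pum) from heads of adult Drosophila melanogaster. The group was 9 genes named by FlyBase symbol (shi, Dap160, Eps-15, EndoA, Amph, Synj, lap, stnA and stnB), matched by FBgn identifier to the rows of the count tables, which held 10422 genes. A row was found for 7 of the 9 genes. The identifiers of stnA and stnB matched no row, so both genes were not analysed here beyond their annotation.

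The data were 12 libraries of cross-linking RNA immunopurification with 3′-end sequencing (xRIP-3′-seq), in which UV light ties a protein to the RNA it touches and each read marks the 3′ end of a recovered transcript. Pum xRIP (n = 4) was a Flag immunopurification from pumFlag flies, whose endogenous Pum carries a C-terminal Flag-HA tag. Control xRIP (n = 4) was the same immunopurification from untagged w1118 flies, named w118 in the labels, and measured what the procedure recovered without the tag. Input (n = 4) was head homogenate that was not immunopurified: 1 library each of pumFlag and w1118 flies and 2 libraries labelled as mixed genotype, whose columns were named fne and rbp9. All groups were adult heads of both sexes, cross-linked as powder, and the genotype label read wt for every sample. Whole heads contain muscle, fat body, glia and photoreceptors besides brain neurons, and in such bulk samples fewer cells of a type and less RNA per cell cannot be told apart. Nothing in the labels said that replicates came from separate cultures of flies, so p-values measure the spread between these libraries, which may be technical. The spread of the inputs also holds any difference between their genotypes, and only 1 input was of pumFlag flies alone.

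After a synaptic vesicle has fused with the plasma membrane, its membrane and proteins are retrieved by endocytosis and refilled with transmitter. Clathrin adaptors gather vesicle proteins on the membrane, scaffold proteins hold the forming pit together, proteins with BAR domains bend the neck, dynamin cuts it, and a lipid phosphatase then lets the coat fall off. Flies carrying temperature-sensitive shi alleles are paralysed by heat because their terminals run out of vesicles, which made this pathway a classical subject of fly genetics. Pum belongs to the PUF family, whose members bind the Pumilio Response Element (PRE) in 3′ UTRs.

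The PRE, written TGTANATA with N for any base, was searched on the sense strand of the annotated 3′ UTR of each gene, the longest one where there were several. It was present in 4 of the 7 genes with counts, namely shi, lap, EndoA and Dap160, and the 7 matches are shown because they are the sequences that Pum is known to recognise. Each line gives 30 bases of the RNA-like strand in dm6 coordinates with the PRE in capitals.
shi match 1, chrX:15904192-15904221, plus strand: ctacttccctgTGTAGATAtaaacaatata
shi match 2, chrX:15904798-15904827, plus strand: atttgtatgtaTGTACATAttccccatccg
shi match 3, chrX:15905264-15905293, plus strand: atatatatatgTGTAAATAtatatatacaa
lap match 1, chr3R:7199609-7199638, plus strand: tttcaagaatgTGTATATAaagcataaaac
lap match 2, chr3R:7200567-7200596, plus strand: cgaatgtatctTGTAGATAaccatcgatcg
EndoA match, chr3R:18909881-18909910, plus strand: atacatacgaaTGTATATAcatatatatac
Dap160 match, chr2L:21136511-21136540, minus strand: ccgaatgtaatTGTATATActgaaagtatt
The variable base of the PRE was T in 3 of the 7 matches (lap match 1, EndoA and Dap160), G in 2, C in 1 and A in 1.

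The matches lay 404, 1010 and 1476 nt into the 3′ UTR of shi (1868 nt), 1195 and 2153 nt into that of lap (2516 nt), 1461 nt into that of EndoA (2324 nt) and 567 nt into that of Dap160 (1820 nt). No match was found in the 3′ UTRs of Synj (797 nt), Amph (979 nt) and Eps-15 (1024 nt), which were shorter than those of the other 4 genes. A PRE was present in 23.6% of the 7394 tested genes with an annotated 3′ UTR, and the share grew with length. Among genes with a 3′ UTR within 1.25 times the length of the gene named, 51.2% held a PRE for shi, 50.1% for Dap160, 55.1% for EndoA and 58.4% for lap, against 30.6% for Synj, 35.5% for Amph and 36.4% for Eps-15. A match is a description of the annotated sequence, and its use by Pum was not measured here. The annotations of stnA and stnB, the stoned proteins that bind synaptotagmin and sort vesicle proteins, share 1 span on chromosome X (22980722 to 23004648, minus strand) and 1 PRE, which lies 81 nt into the 3′ UTR of stnB and 3922 nt into that annotated for stnA. Of 345 coding genes that share their exact span and strand with another gene, 16 had a row in the tables, compared with 9696 of all 13986 coding genes.

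**Figure D1:**
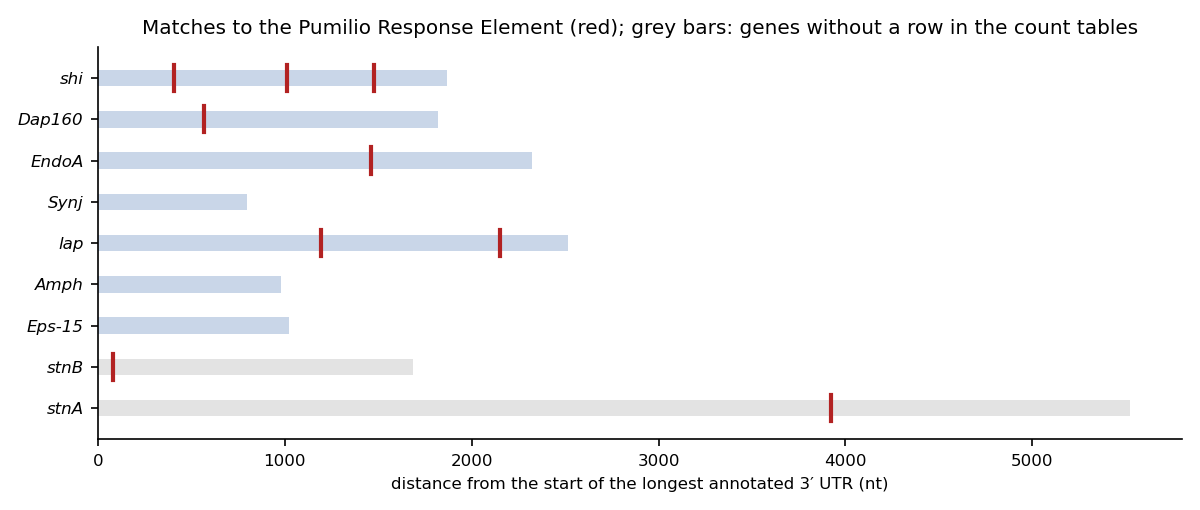
Length of the longest annotated 3′ UTR of each of the 9 genes (bars, in nt from the start of the 3′ UTR) with the PRE matches as red ticks; grey bars are stnB and stnA, which had no row in the count tables. Matches are seen in shi (3), lap (2), Dap160, EndoA, stnB and stnA (1 each), and none in Synj, Amph and Eps-15.

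Library totals were 3050717 to 5051009 counts in Pum xRIP, against 3342790 to 4485996 in control xRIP and 9563433 to 13726254 in the inputs. The replicates of the immunopurified groups resembled each other less than the inputs did, with Spearman correlations over genes (a description, since genes are no replicates) of 0.60 to 0.67 in Pum xRIP, against 0.53 to 0.59 in control xRIP and 0.87 to 0.93 among inputs. The dispersion estimated in common over genes was 3.84 in Pum xRIP, against 5.08 in control xRIP and 0.226 in input. Levels below are CPM, counts scaled to a common library size after TMM normalization, and 3 counts correspond to 0.492 to 0.894 CPM in Pum xRIP, 0.820 to 0.962 CPM in control xRIP and 0.200 to 0.381 CPM in the inputs. A call required an adjusted p below 0.05 and a log2 fold change beyond 1 in either direction, from a quasi-likelihood fit of all 12 libraries over 7645 genes (edgeR). Over all genes tested, log2 fold changes had a median of 0.00 for Pum xRIP against control xRIP, −0.54 for Pum xRIP against input and −0.83 for control xRIP against input, so each change is best read against these values. These medians became 0.27, −0.08 and −0.66 with DESeq2 size factors, and 0.27, −0.37 and −0.96 for library totals.

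Against control xRIP, 6 of the 7 genes had a positive log2 fold change in Pum xRIP, with a median of 2.39 and a range of −0.33 to 5.18. One gene, Eps-15, was called higher and 0 were called lower, where 7.72% of all genes tested were called higher and 4.45% lower. At an unadjusted p below 0.05 there were 5 genes, all higher in Pum xRIP (shi, Dap160, Eps-15, Amph and lap), as were 19.3% of all genes. The count of calls was 0 without Pum xRIP replicate 1, 3 or 4, and 3 without control xRIP replicate 3. In 4 genes (shi, lap, Amph and Eps-15) every Pum xRIP library exceeded every control xRIP library, as did 9.95% of all genes tested. Of the called genes, 63.4% were higher in Pum xRIP with TMM, against 73.4% with DESeq2 size factors and 74.4% for library totals.

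Against input, 4 of the 7 genes had a positive log2 fold change in Pum xRIP, with a median of 0.25 and a range of −0.63 to 2.41, and Dap160 (−0.08) turned positive with DESeq2 size factors (0.41) and library totals (0.17). None was called higher or lower by edgeR, where 0.549% of all genes tested were called higher and 4.87% lower. None had an unadjusted p below 0.05, whereas 18.2% of all genes did, in either direction. DESeq2 on the same 3 groups also called 0 but gave lap no adjusted p, here or against control xRIP, whereas fits of only Pum xRIP and input called lap (edgeR, DESeq2) and Amph (DESeq2). In 1 gene, lap, all 4 Pum xRIP libraries lay above all 4 inputs, as in 5.57% of genes tested, and above all 8 other libraries, as in 4.47%. In 1 gene, shi, all inputs lay above all Pum xRIP libraries, as in 22.6% of genes tested. The share of called genes that were higher was 10.1% with TMM, against 24.3% with DESeq2 size factors and 14.0% for library totals.

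Control xRIP against input compared the share of each transcript among the counts recovered without the tag with its share in input. The amount recovered was not measured. All 7 log2 fold changes were below 0, with a median of −1.64 and a range of −4.93 to −0.29. Both shi and Eps-15 were called lower and 0 genes were called higher, where 10.7% of all genes tested were called lower and 1.82% higher. At an unadjusted p below 0.05 there were 3 genes, all lower in control xRIP, as were 22.6% of all genes. Without any 1 of the inputs, 1 gene was called lower. In 4 genes (shi, Dap160, EndoA and Eps-15) every input exceeded every control xRIP library, as did 31.8% of all genes tested. Both comparisons with control xRIP share its 4 libraries, and both comparisons with input share the inputs, so the changes of a gene are not independent of each other.

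**Figure D2:**
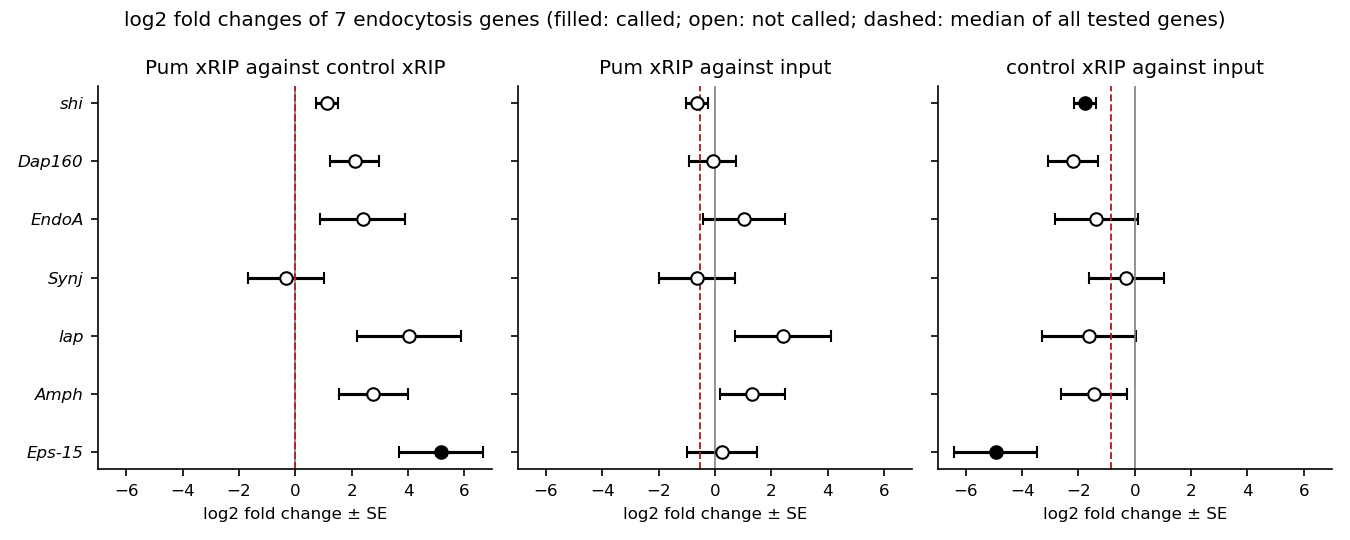
log2 fold change (x axis) ± SE of 7 genes (y axis) for the 3 comparisons, from the edgeR fit of all 12 libraries; filled points are called, open points are not, and dashed lines are medians of all 7645 genes tested. Eps-15 is called at 5.18 against control xRIP, shi and Eps-15 are called at −1.76 and −4.93 in control xRIP against input, and no gene is called for Pum xRIP against input.

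Fission is carried out by shi, which encodes dynamin, the GTPase that pinches the vesicle from the membrane (FBgn0003392, chromosome X, 15892116 to 15906716, plus strand). Its level was 234, 236, 181 and 206 CPM in Pum xRIP, 74.2, 70.5, 143 and 103 CPM in control xRIP, and 248 (fne), 499 (pum), 279.6 (rbp9) and 297 (w118) CPM in input. The 3 groups did not overlap, with Pum xRIP between control xRIP and input. Means were 214 ± 25.8 CPM in Pum xRIP, 97.5 ± 33.4 CPM in control xRIP and 331 ± 114 CPM in the inputs (SD, n = 4 each). The log2 fold change of Pum xRIP was 1.14 ± 0.39 (SE) against control xRIP (adjusted p = 0.0635, edgeR) and −0.63 ± 0.39 (SE) against input (adjusted p = 0.557, edgeR). It fell in control xRIP, with a log2 fold change of −1.76 ± 0.40 (SE) against input (adjusted p = 0.0110, edgeR). The difference from control xRIP passed the threshold with DESeq2 size factors (adjusted p = 0.0327, edgeR), with library totals (adjusted p = 0.0294, edgeR), in DESeq2 on 3 or 2 groups and without control xRIP replicate 3 (1.55, adjusted p = 0.0292, edgeR), so its call depended on the scaling, the tool and that library. The fall in control xRIP was kept in 15 of 16 alternatives and lost with voom weights per group (adjusted p = 0.141, limma).

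Dap160, the fly intersectin, is a scaffold that binds dynamin, synaptojanin and Eps15 at the edge of the active zone (FBgn0023388, chromosome 2L, 21134439 to 21142347, minus strand). Its level was 297, 509, 264 and 721 CPM in Pum xRIP, 6.07, 278, 116 and 15.6 CPM in control xRIP, and 299 (fne), 793 (pum), 514 (rbp9) and 286 (w118) CPM in input. Control xRIP libraries spread over more than 1 order of magnitude and their highest exceeded the lowest Pum xRIP library. Means were 448 ± 212 CPM in Pum xRIP, 104 ± 126 CPM in control xRIP and 473 ± 238 CPM in the inputs (SD, n = 4 each). The log2 fold change of Pum xRIP was 2.11 ± 0.87 (SE) against control xRIP (adjusted p = 0.101, edgeR) and −0.08 ± 0.84 (SE) against input (adjusted p = 0.9999, edgeR). Control xRIP against input gave −2.19 ± 0.88 (SE) (adjusted p = 0.111, edgeR). Leaving out control xRIP replicate 2, the library with 278 CPM, brought Pum xRIP against control xRIP past the threshold (3.41, adjusted p = 0.0330, edgeR).

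Eps-15 encodes a further scaffold, with EH domains, that works together with Dap160 (FBgn0035060, chromosome 2R, 24768314 to 24775265, minus strand). Its counts were 200, 139, 272 and 743 in Pum xRIP, 24, 7, 0 and 0 in control xRIP, and 734 (fne), 630 (pum), 525 (rbp9) and 1024 (w118) in input. These were 59.6, 22.8, 50.3 and 181 CPM in Pum xRIP, 6.62, 1.96, 0 and 0 CPM in control xRIP, and 65.5, 80.0, 50.6 and 68.3 CPM in input. Every control xRIP library lay below every other library, whereas Pum xRIP and input overlapped. The mean of 78.4 ± 70.1 CPM in Pum xRIP was 36.6 times that of 2.14 ± 3.12 CPM in control xRIP and 1.19 times that of 66.1 ± 12.1 CPM in input (SD, n = 4 each). Eps-15 rose in Pum xRIP with a log2 fold change of 5.18 ± 1.49 (SE) against control xRIP (adjusted p = 0.0377, edgeR), and it fell in control xRIP with −4.93 ± 1.47 (SE) against input (adjusted p = 0.0430, edgeR). Pum xRIP against input gave 0.25 ± 1.24 (SE) (adjusted p = 0.999, edgeR). The call against control xRIP was kept in 9 of 17 alternatives, with adjusted p of 3.63e-05 to 0.240, and was lost without Pum xRIP replicate 1, 3 or 4 (adjusted p = 0.0557, 0.0543 and 0.0806, edgeR) or without control xRIP replicate 2 (adjusted p = 0.0589, edgeR). With a library left out, the log2 fold change ranged from 4.36 without Pum xRIP replicate 4 to 7.02 without control xRIP replicate 1. The call of control xRIP against input was lost without control xRIP replicate 2 (adjusted p = 0.0567, edgeR) and without any of the inputs (adjusted p = 0.0662 to 0.0866, edgeR), and its log2 fold change was −6.88 without control xRIP replicate 1.

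EndoA encodes endophilin A, a BAR-domain protein that bends the neck of the pit and recruits synaptojanin (FBgn0038659, chromosome 3R, 18906609 to 18910755, plus strand). Its level was 42.9, 0, 130.3 and 124 CPM in Pum xRIP, 17.6, 0.280, 19.6 and 19.1 CPM in control xRIP, and 45.3 (fne), 34.9 (pum), 28.1 (rbp9) and 37.3 (w118) CPM in input. Pum xRIP libraries lay below, within and above the range of the inputs, with replicate 2 at 0 counts, which allows up to 0.492 CPM by counting error alone. Means were 74.3 ± 63.6 CPM in Pum xRIP, 14.2 ± 9.29 CPM in control xRIP and 36.4 ± 7.07 CPM in the inputs (SD, n = 4 each). The log2 fold change of Pum xRIP was 2.39 ± 1.52 (SE) against control xRIP (adjusted p = 0.353, edgeR) and 1.03 ± 1.46 (SE) against input (adjusted p = 0.962, edgeR), and that of control xRIP against input was −1.36 ± 1.47 (SE) (adjusted p = 0.739, edgeR). None of these differences was called in any alternative, although every input lay above every control xRIP library.

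Amph, amphiphysin, has a BAR domain like EndoA but in flies is best known for shaping the T tubules of muscle (FBgn0027356, chromosome 2R, 12593604 to 12612068, plus strand). Its level was 36.6, 99.5, 129 and 90.1 CPM in Pum xRIP, 26.2, 0, 10.3 and 15.6 CPM in control xRIP, and 46.0 (fne), 28.3 (pum), 25.3 (rbp9) and 41.9 (w118) CPM in input. Every Pum xRIP library exceeded every control xRIP library, and 3 of the 4 exceeded all inputs. Means were 88.8 ± 38.4 CPM in Pum xRIP, 13.0 ± 10.9 CPM in control xRIP and 35.4 ± 10.1 CPM in the inputs (SD, n = 4 each). The log2 fold change of Pum xRIP was 2.77 ± 1.22 (SE) against control xRIP (adjusted p = 0.126, edgeR) and 1.33 ± 1.16 (SE) against input (adjusted p = 0.824, edgeR), and control xRIP against input gave −1.44 ± 1.16 (SE) (adjusted p = 0.583, edgeR). Only DESeq2 called these differences, on 3 groups against control xRIP (3.06, adjusted p = 0.00998) and on 2 groups against input (1.32, adjusted p = 0.0349). The lncRNA:CR45279 and lncRNA:CR43909 overlap the span of Amph on the opposite strand, and whether the counting used strand was not stated.

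Synj encodes synaptojanin, the phosphoinositide phosphatase that promotes uncoating (FBgn0034691, chromosome 2R, 22080176 to 22085767, plus strand). Its level was 5.06, 77.7, 55.9 and 10.7 CPM in Pum xRIP, 51.8, 122, 0 and 13.9 CPM in control xRIP, and 61.7 (fne), 48.0 (pum), 49.4 (rbp9) and 71.5 (w118) CPM in input. Both immunopurified groups held libraries above and below the range of the inputs, and they overlapped each other. Means were 37.3 ± 35.2 CPM in Pum xRIP, 47.0 ± 54.8 CPM in control xRIP and 57.6 ± 11.1 CPM in the inputs (SD, n = 4 each). The log2 fold change of Pum xRIP was −0.33 ± 1.35 (SE) against control xRIP (adjusted p = 0.966, edgeR) and −0.63 ± 1.35 (SE) against input (adjusted p = 0.987, edgeR), and control xRIP against input gave −0.29 ± 1.34 (SE) (adjusted p = 0.964, edgeR). Synj was the only one of the 7 genes with a negative value against control xRIP, and this sign was positive without Pum xRIP replicate 1 (0.04), without control xRIP replicate 2 (0.97) and with voom weights per group (1.21).

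The adaptor gene lap, the fly AP180/CALM, sets the size of synaptic vesicles and the sorting of synaptobrevin (FBgn0086372, chromosome 3R, 7186994 to 7200941, plus strand). Its counts were 370, 587, 626 and 134 in Pum xRIP and 0, 0, 67 and 0 in control xRIP. Its level was 110.2, 96.2, 116 and 32.6 CPM in Pum xRIP, 0, 0, 21.5 and 0 CPM in control xRIP, and 23.8 (fne), 14.99 (pum), 14.6 (rbp9) and 13.4 (w118) CPM in input. All Pum xRIP libraries lay above all others, and lap was the only one of the 7 genes with this order. Means were 88.7 ± 38.3 CPM in Pum xRIP, 5.37 ± 10.7 CPM in control xRIP and 16.7 ± 4.80 CPM in the inputs (SD, n = 4 each), a ratio of 16.5 between Pum xRIP and control xRIP and of 5.31 between Pum xRIP and input. The log2 fold change of Pum xRIP was 4.04 ± 1.84 (SE) against control xRIP (adjusted p = 0.142, edgeR) and 2.41 ± 1.71 (SE) against input (adjusted p = 0.686, edgeR), and that of control xRIP against input was −1.64 ± 1.67 (SE) (adjusted p = 0.715, edgeR). In fits of Pum xRIP and input alone, where the control libraries do not enter the estimate of the spread, the change against input was called, with 2.37 ± 0.58 (SE) (adjusted p = 0.0200, edgeR) and 2.43 ± 0.52 (SE) (adjusted p = 3.40e-05, DESeq2). The fold change was nearly the same in all 3 fits, whereas the standard error was smaller in the fits of these 2 groups. Without control xRIP replicate 3, Pum xRIP against control xRIP was called (adjusted p = 0.00163, edgeR). That library was the only control library with counts, so leaving it out left no control count for lap. This call is therefore only a description of how much rests on that library. The gene CG14609 begins 29 bp downstream of lap on the same strand, and GstE12 begins 142 bp downstream of Eps-15 on the same strand, both within the 500 bp over which downstream signal was kept by the authors.

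**Figure D3:**
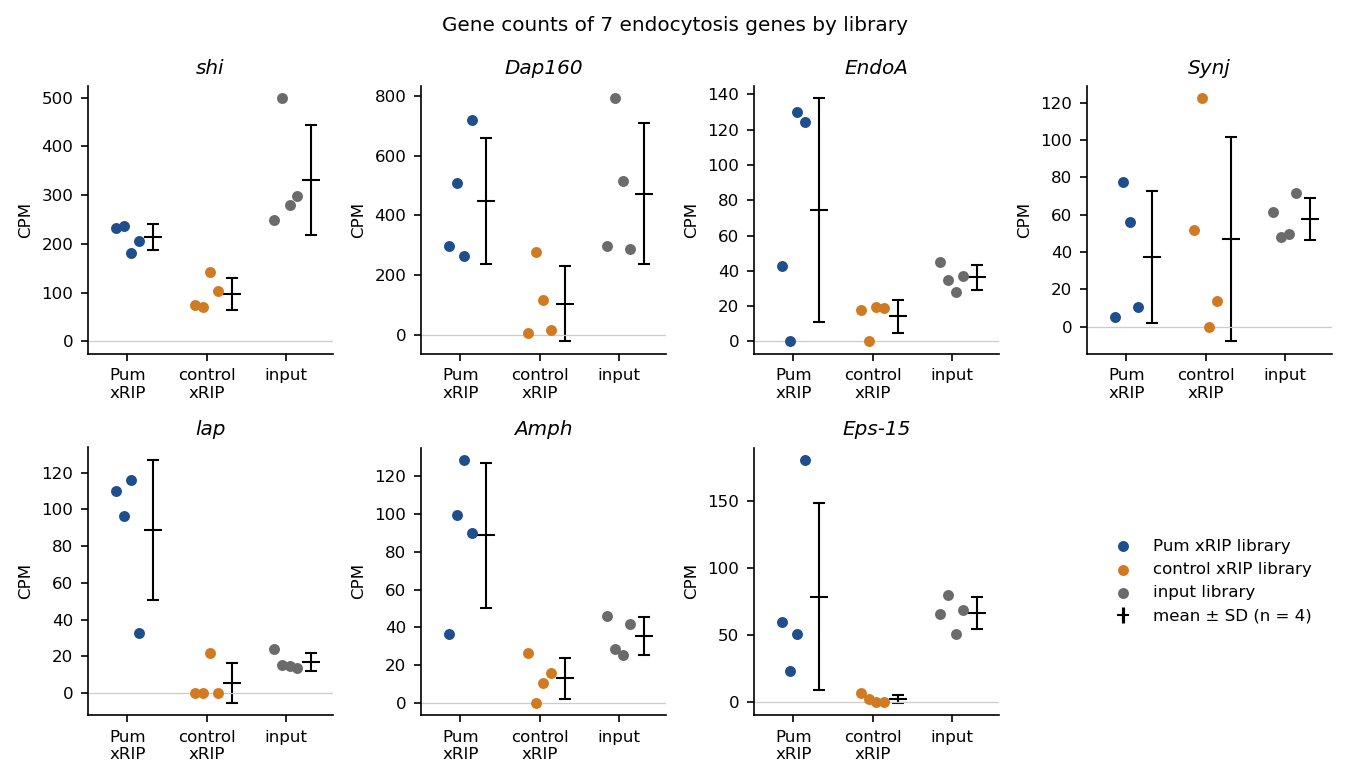
Level in CPM (y axis, linear) of 7 genes in every library, by group; points are libraries and black marks are mean ± SD (n = 4). Pum xRIP libraries of lap (32.6 to 116 CPM) lie above all control xRIP and input libraries, those of shi lie between both other groups, and control xRIP libraries of Eps-15 (0 to 6.62 CPM) lie below all others.

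Reads were also counted per 3′-end cluster, a stretch in which neighbouring 3′ ends were merged. A cluster need not be a separate 3′ UTR isoform, since shi had 42 clusters and 4 annotated 3′ UTRs, EndoA 21 and 2, and Dap160 30 and 3. For 3′ UTR lengths, the authors used only clusters near 3′ ends from long reads or annotation, a step not applied here. Clusters carry a gene identifier and a number without a position, so they are named here by number only. The 7 genes had 142 clusters, of which 29 had no count in any library. Counts were seen in at least 1 library for 53 clusters in Pum xRIP, against 25 in control xRIP and 104 in input, and in all 4 libraries of a group for 12, 1 and 46. The single cluster detected in all 8 immunopurified libraries was cluster 7 of shi. The detected clusters were fewer but deeper after immunopurification, with a median count of 61.0, 204, 89.0 and 64.5 in the Pum xRIP libraries, 35.0 to 60.5 in control xRIP and 14.0 to 16.5 in the inputs. The table as a whole had the same pattern, with medians over all detected clusters of 78 to 193 counts in Pum xRIP, 73 to 105 in control xRIP and 25 to 28 in the inputs. Of the 142 clusters, 37.3% were seen in Pum xRIP, against 17.6% in control xRIP and 73.2% in the inputs. Of all 56392 clusters, these shares were 38.3% for Pum xRIP, 27.7% for control xRIP and 76.8% for the inputs. The filter on low counts kept 27 of the 142 clusters, 10 of them in Dap160, and 9 of the 27 had no count in control xRIP and 2 none in Pum xRIP.

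Against control xRIP, 23 of the 27 clusters had a positive log2 fold change in Pum xRIP, 2 were called higher and 0 lower (edgeR), where 8.91% of all 14235 clusters tested were called higher and 3.07% lower. Of the 27, 8 had an unadjusted p below 0.05. All 8 were higher in Pum xRIP, as were 29.1% of all clusters at this p. All but cluster 2 of Eps-15 had no count in control xRIP, so higher was the only direction open to them. Cluster 47 of shi, cluster 9 of EndoA and clusters 4, 22 and 23 of Dap160 had counts in only 1 Pum xRIP library each. The called clusters were cluster 4 of lap and cluster 2 of Eps-15. Cluster 4 of lap had 61, 247, 304 and 7 counts in Pum xRIP, none in control xRIP and 25 to 39 in input. Its mean was 27.8 ± 23.6 CPM in Pum xRIP and 3.48 ± 0.92 CPM in input (SD, n = 4 each), and Pum xRIP was at least 135-fold higher than a floor of 3 counts over the control libraries (adjusted p = 0.0200, edgeR). Cluster 2 of Eps-15 had 101, 139, 157 and 476 counts in Pum xRIP, 0, 7, 0 and 0 in control xRIP and 323 to 739 in input. Its log2 fold change was 6.58 ± 1.74 (SE) against control xRIP (adjusted p = 0.0336, edgeR) and −0.08 ± 1.35 (SE) against input (adjusted p = 0.993, edgeR). Neither was called without a filter on low counts (adjusted p = 0.0616 for lap and 0.0961 for Eps-15, edgeR). Cluster 2 of Eps-15 was also not called in the fit of the 2 groups (adjusted p = 0.0968, edgeR). Cluster 4 of lap did not pass the filter in that fit and was not tested there. The call for lap was kept in all 8 fits that left out 1 library, whereas that for Eps-15 was lost without Pum xRIP replicate 3 or 4 or control xRIP replicate 1, 3 or 4 (adjusted p = 0.0525 to 0.0608, edgeR). The count of called clusters was 1 without Pum xRIP replicate 3, Pum xRIP replicate 4 or control xRIP replicate 1.

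Against input, 10 of the 27 clusters had a positive log2 fold change in Pum xRIP, 0 were called higher and 2 lower (edgeR), where 0.211% of all clusters tested were called higher and 9.48% lower, and 3 had an unadjusted p below 0.05. All 3 were lower in Pum xRIP, as were 21.1% of all clusters at this p. The called clusters were 19 and 28 of Dap160, which had no count in any immunopurified library, against means of 5.13 ± 3.87 and 6.05 ± 5.01 CPM in the inputs (SD, n = 4). They were the only 2 of the 27 clusters with no immunopurified library above the cutoff of the filter on low counts. A lower value was the only outcome open to them, so their calls are given as a description and not as a test of loss from Pum xRIP. Each held about 1% of the input counts of Dap160 (0.880% and 1.03%). Other clusters, such as 9 of EndoA and 22 of Dap160, passed the cutoff in all 4 inputs and only 1 immunopurified library. The inputs alone would also have kept these. DESeq2 on 3 groups called 0 in either direction. With libraries left out, 4 clusters were called lower without Pum xRIP replicate 3, and 1 without the pum, rbp9 or w118 input, where cluster 28 did not pass the filter on low counts.

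**Figure D4:**
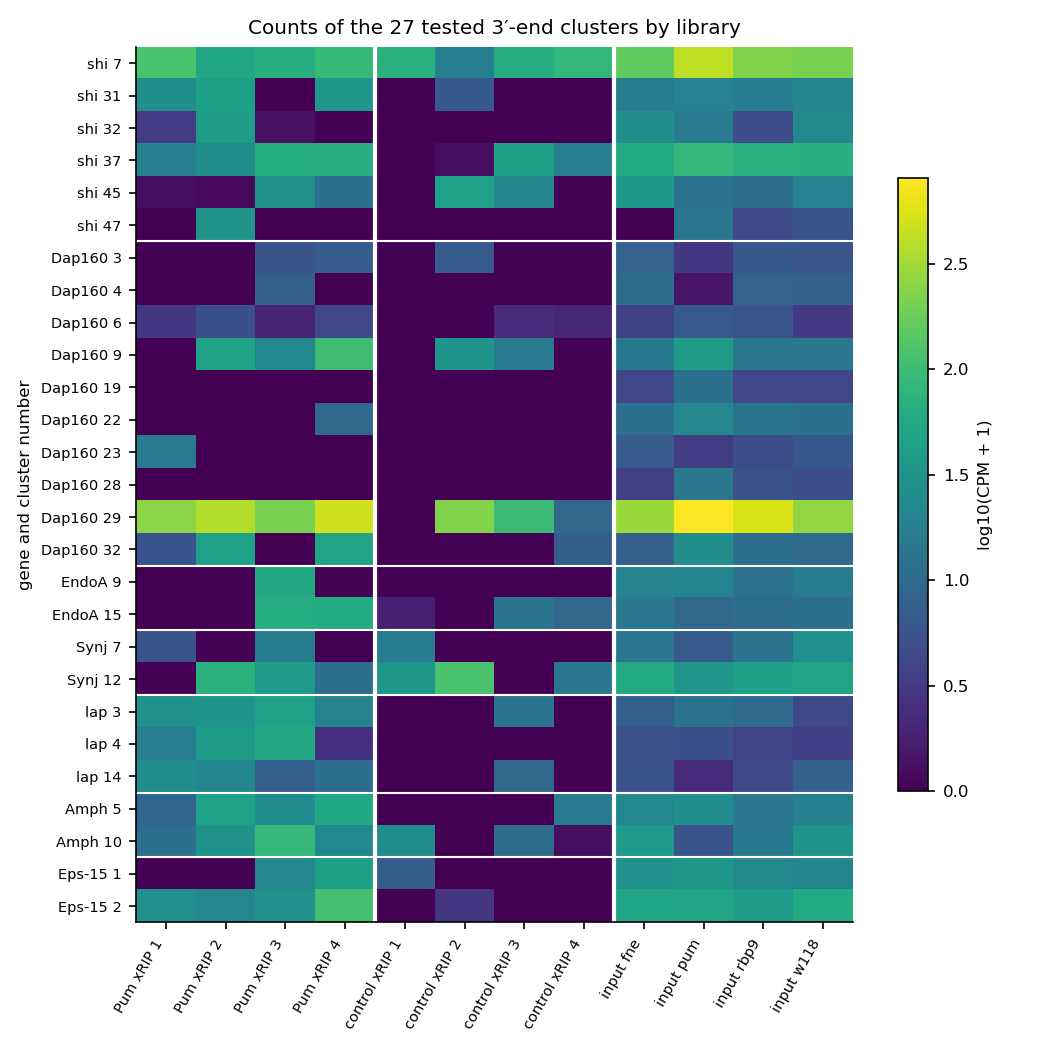
Level of the 27 tested 3′-end clusters (rows, by gene and cluster number) in the 12 libraries (columns, groups separated by white lines), as log10(CPM + 1) in colour. Cluster 7 of shi and cluster 29 of Dap160 are the brightest rows, clusters 19 and 28 of Dap160 are at 0 in all 8 immunopurified libraries, and most rows are dark in control xRIP.

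Within each gene, the counts were spread unevenly over clusters. Cluster 29 held most of Dap160, with 78.3% of the pooled counts in Pum xRIP, against 83.2% in control xRIP and 84.0% in input, and cluster 12 held most of Synj, with 85.9%, 91.1% and 65.1%. In shi, cluster 7 held 55.7%, 25.1%, 36.2% and 44.6% of the counts in the Pum xRIP libraries, 100%, 25.0%, 46.7% and 83.7% in control xRIP, and 51.2% (fne), 72.1% (pum), 66.5% (rbp9) and 59.1% (w118) in input. The Pum xRIP and control xRIP libraries overlapped in this share, and 1 Pum xRIP library lay within the range of the inputs. Unequal change among the clusters of a gene was tested with diffSpliceDGE over 3095 genes. It was called for shi in Pum xRIP against control xRIP (6 clusters, adjusted p = 0.0214, edgeR), where 39.7% of all genes tested were called, and for Dap160 in control xRIP against input (10 clusters, adjusted p = 0.0200, edgeR), where 28.2% were called. For Pum xRIP against input it was called for 0 of the 7 genes, with Dap160 the lowest (adjusted p = 0.0708, edgeR) and alone at an unadjusted p below 0.05, where 12.1% of all genes tested were called. The calls for shi and Dap160 were lost when the cluster tests were combined by the Simes method, and that for shi also in the fit of the 2 groups. In shi, clusters 32 and 47 had no count in control xRIP, and most of their Pum xRIP counts came from replicate 2 (259 and 208). In Dap160, clusters 4, 19, 22, 23 and 28 had no count in control xRIP, so they could only be lower there than in input. Clusters 19 and 28 also had none in Pum xRIP. How far the values for shi and Dap160 rest on these clusters was not tested.

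In the other genes the leading cluster varied between groups or libraries. In lap, cluster 3 led in each group (37.3% of the pooled counts in Pum xRIP, against 58.2% in control xRIP and 34.6% in input), but cluster 4 held 42.1% and 48.6% in Pum xRIP replicates 2 and 3 and 5.22% in replicate 4. In Amph, cluster 10 held 44.4% in Pum xRIP, against 69.6% in control xRIP and 52.1% in input. In EndoA, cluster 15 led in Pum xRIP (44.0%) and control xRIP (37.2%), and cluster 9 led in input (36.6%), whereas cluster 9 had counts in only 1 of the 8 immunopurified libraries, Pum xRIP replicate 3. In Eps-15, cluster 2 held 64.5% in Pum xRIP and 63.7% in input, and the few control xRIP counts fell on cluster 1 (77.4%). None of these 4 genes, nor Synj, was called for unequal change in any of the 3 comparisons (adjusted p = 0.0522 to 0.998, edgeR).

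A wider list of 19 genes of the same pathway served as a comparison, of which 17 passed the filter on low counts. In Pum xRIP against control xRIP, 2 of the 17 were called higher and 0 lower, with a median log2 fold change of 0.86. Of all genes tested, 7.72% were called higher and 4.45% lower. In Pum xRIP against input 0 were called either way, with a median of −0.01, where the shares of all genes were 0.549% and 4.87%. In control xRIP against input 0 were called higher and 2 lower, with a median of −1.64, where these shares were 1.82% and 10.7%. None of the 7 genes for the clathrin coat and its adaptors (Chc, Clc, AP-2alpha, AP-2mu, AP-2sigma, AP-1-2beta and lqf) was called in a comparison with Pum xRIP, and their median against control xRIP was 0.42. None of the 5 partners in membrane remodelling and actin (Synd, nwk, Cip4, WASp and Past1) was called, with a median of 2.41. The medians over the 17 genes kept their values of 0.86 and −1.64 when aux, WASp and tweek, which had no count in control xRIP, were set to their bounds. The genes called higher than control xRIP were aux and tweek, for which higher was the only direction open.

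The J-domain protein auxilin, encoded by aux, brings the chaperone Hsc70 to the coat and works in the same step as Synj. It had 497, 554, 459 and 68 counts in Pum xRIP, none in control xRIP, and 230 (fne), 80 (pum), 94 (rbp9) and 320 (w118) in input. Pum xRIP replicate 4, at 16.6 CPM, lay within the range of the inputs and the other 3 replicates lay above it. The mean was 85.1 ± 53.8 CPM in Pum xRIP, at least 396-fold higher than a floor of 3 counts over the control libraries (adjusted p = 0.00211, edgeR), and 5.57 times the mean of 15.3 ± 6.56 CPM in input (adjusted p = 0.298, edgeR). That difference from input was called in 3 of 16 alternatives, by DESeq2 on 3 groups (adjusted p = 0.0161) or 2 groups (adjusted p = 0.00428) and with voom weights per group (adjusted p = 0.0422, limma). The call against control xRIP was kept in all 8 fits with 1 library left out and missed the threshold with the replicate block (adjusted p = 0.0571, edgeR). The other gene, tweek, needed for vesicle endocytosis at the fly neuromuscular junction, had 207, 0, 109 and 129 counts in Pum xRIP, none in control xRIP and 12 to 54 in input. It was at least 132-fold higher in Pum xRIP than the same floor (adjusted p = 0.0379, edgeR), with 28.3 ± 25.8 CPM in Pum xRIP and 2.49 ± 1.16 CPM in input (SD, n = 4 each). Its call was lost in 7 of 8 fits with 1 library left out, all but that without Pum xRIP replicate 2 (adjusted p = 0.0525 to 0.0573, edgeR), and DESeq2 on 2 groups called it higher than input (adjusted p = 0.0378). These bounds cover counting error only. No molecular identifiers were mentioned for these libraries, so copies made by amplification may be counted as separate reads.

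**Figure D5:**
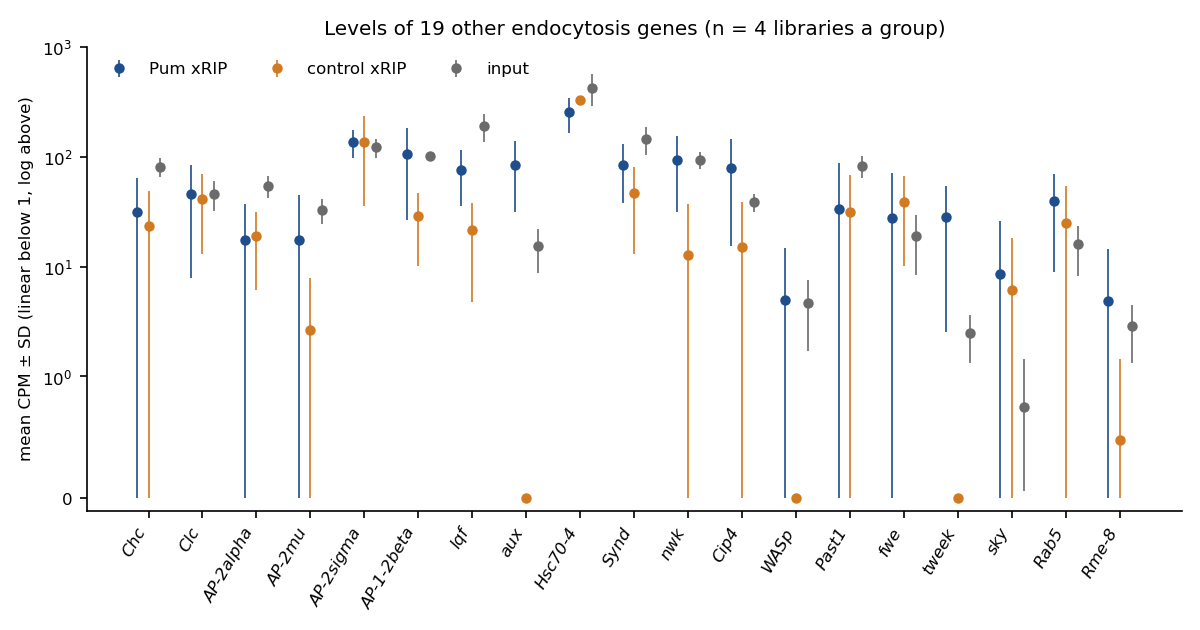
Mean level ± SD (n = 4) of 19 other endocytosis genes in CPM (y axis, linear below 1 and logarithmic above) in Pum xRIP, control xRIP and input; error bars end at 0 where the SD exceeds the mean. Points of aux, WASp and tweek lie at 0 in control xRIP, and aux and tweek were called higher in Pum xRIP (85.1 and 28.3 CPM) than in control xRIP.

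The levels of marker transcripts for the cell types in a head also differed between the groups. After immunopurification these levels are shares of the recovered RNA and do not measure the numbers of cells. Among all genes tested, 7.72% were called higher and 4.45% lower in Pum xRIP than in control xRIP. Against input, 0.549% were called higher and 4.87% lower. The summed level of 4 neuron markers (elav, nSyb, brp and Syt1) was 3625 to 4228 CPM in Pum xRIP, 344 to 574 CPM in control xRIP and 1776 to 2886 CPM in the inputs. Of the 4, 3 were called higher in Pum xRIP than in control xRIP and 2 (brp and Syt1) higher than in input. These 2 had the highest means of the 4 in Pum xRIP (1182 and 1641 CPM). The authors name both as Pum target mRNAs, so this sum is no reference free of Pum binding. The summed level of 5 muscle markers (Mhc, Act88F, up, TpnC25D and Mlp84B) was 150.1 to 2709 CPM in Pum xRIP, 8421 to 24071 CPM in control xRIP and 557 to 1914 CPM in the inputs. Of the 5, 2 were called lower in Pum xRIP than in control xRIP (TpnC25D and Act88F). Most of this sum came from TpnC25D, without which the other 4 summed to 117.5 to 203 CPM in Pum xRIP, 369 to 662 CPM in control xRIP and 527 to 982 CPM in the inputs. For 3 photoreceptor markers (ninaE, trp and ninaC) it was 2362 to 3458 CPM in Pum xRIP, 1735 to 2533 CPM in control xRIP and 6252 to 8085 CPM in the inputs, with 0 of 3 called between Pum xRIP and control xRIP. For 4 glia markers (repo, Gs2, Eaat1 and moody) it was 963 to 1722 CPM in Pum xRIP, 1393 to 1675 CPM in control xRIP and 1504 to 2443 CPM in the inputs. Of the 4, repo was at 0 in all control xRIP libraries, and 2 were called higher and 1 (Gs2) lower in Pum xRIP than in control xRIP. Without Gs2, the glia sum was 558 to 1107 CPM in Pum xRIP, 129 to 202 CPM in control xRIP and 233 to 420 CPM in the inputs. Against input, Eaat1 was called higher and Gs2 lower. For 5 fat body markers (Yp1, Yp2, Yp3, Lsp2 and apolpp) it was 4495 to 7038 CPM in Pum xRIP, 3026 to 3969 CPM in control xRIP and 6881 to 17976 CPM in the inputs, with 1 of 5 called higher in Pum xRIP than in control xRIP. Apart from repo, no marker of these lists was at 0 in every library of a group. The summed level of the 7 endocytosis genes was 785 to 1366 CPM in Pum xRIP, 167 to 473 CPM in control xRIP and 790 to 1498 CPM in the inputs. Dap160 (means of 448, 104 and 473 CPM) and shi (214, 97.5 and 331 CPM) were its largest parts in these groups. Synj went the other way, with a mean of 37.3 CPM in Pum xRIP and 47.0 CPM in control xRIP. The sums of neuron, photoreceptor and fat body markers were lower in every control xRIP library than in every input, like that of endocytosis genes. The same held for glia markers without Gs2. The part of the marker differences in the results for single genes was not tested.

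The genes did not share 1 pattern over the 12 libraries. Pearson correlations of log2(CPM + 1) between pairs of the 7 genes ranged from −0.30 (EndoA and Synj) to 0.74 (shi and Eps-15), as a description over libraries that fall into 3 groups. Outside the group, the gene most like each member among 5501 genes with a mean of at least 10 CPM was MFS14 for shi (r = 0.96), Top1 for Dap160 (r = 0.96), east for Eps-15 (r = 0.95), CG10321 for EndoA (r = 0.94), Nckx30C for Amph (r = 0.97), CAH2 for Synj (r = 0.92) and Edem2 for lap (r = 0.99), each over 12 libraries. Like lap, Edem2 had its highest mean in Pum xRIP, with 89.3 CPM in Pum xRIP, against 8.42 CPM in control xRIP and 16.5 CPM in the inputs. Nckx30C, a calcium exchanger, had 979 CPM in Pum xRIP, against 55.0 CPM in control xRIP and 396 CPM in the inputs, the order also seen in Amph. Both genes were picked for the highest correlation over these same libraries, so the shared order follows from that choice.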

How the data were processed

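As the methods describe, the authors used fastp for trimming, aligned reads to dm6 with STAR 2.6.1b (Ensembl release 93) without spliced alignments, removed signal beside genomic A-runs, kept signal up to 500 bp downstream of genes, clustered 3′ ends and recounted reads. The files deposited by the authors hold raw counts of genes and of clusters, from QuantSeq REV libraries. Prepared DESeq2 tables were not used. The 2 mixed-genotype inputs were assigned to input only, since their columns (fne, rbp9) matched no single sample.

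Counts were tested with edgeR 4.0.16 (R 4.3.3): TMM, default filter by group, quasi-likelihood F test of 3 groups, Benjamini-Hochberg adjustment over all genes or clusters. The standard error is the log2 fold change over the square root of F. Alternatives used DESeq2 1.42.0, limma 3.58.1, other scalings, no filter, 2 groups, a replicate block and fewer libraries. Scripts were tested on simulated data. Annotation was Ensembl release 115 with the RefSeq dm6 genome. Named were all 9 members, pathway genes called in a comparison with Pum xRIP (at most 6) and the nearest gene by correlation. The members and lists were chosen with earlier results of these data known. Counting intervals and floors cover counting error only.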

Additional observations from a re-analysis of the deposited data

Results flagged for a closer look

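Of 21 groups of 4 libraries (7 genes in 3 groups), 3 held a library far from the other 3 by Dixon's criterion. Chance gives about 1 in 20, or 1.05 of 21, for continuous values with a normal spread. That rate does not apply to counts with many zeros, such as lap in control xRIP, so no excess over chance is read from these 3. EndoA was at 0.280 CPM in control xRIP replicate 2, against 17.6 to 19.6 CPM in the other control xRIP libraries. The gene lap was at 21.5 CPM in control xRIP replicate 3, against 0 in the other control xRIP libraries. It was also at 23.8 CPM in the fne input, against 13.4 to 14.99 CPM in the other inputs.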

How the results depend on the processing

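For Pum xRIP against input, where 0 genes were called higher, the fits of the 2 groups gave 1 (edgeR) and 2 (DESeq2). For Pum xRIP against control xRIP, where 1 gene was called higher, the count was 2 with DESeq2 size factors, library totals, DESeq2 on the 2 groups or voom weights, 3 with DESeq2 on 3 groups (where lap had no adjusted p), and 0 without a filter, in edgeR on the 2 groups or without the mixed-genotype inputs. For control xRIP against input, where 2 genes were called lower, it was 1 without a filter, in edgeR on the 2 groups or without the mixed-genotype inputs. Leaving out 1 library gave 0 to 3, 1 to 3 and 0 genes for Pum xRIP against control xRIP (higher), control xRIP against input (lower) and Pum xRIP against input (higher). Of 27 clusters, the 2 called lower than input became 0 without a filter and with DESeq2, and 1 to 4 with a library left out. The 2 called higher than control xRIP became 0 without a filter and in edgeR on the 2 groups (where cluster 4 of lap was not tested, having failed the filter on low counts), 6 with DESeq2, and 1 to 3 with a library left out. Unequal cluster change in edgeR on the 2 groups was called for 1 gene (Pum xRIP against input), 0 genes (Pum xRIP against control xRIP) and 4 genes (control xRIP against input), and by Simes for 0 in each. The cause of these differences was not tested. In fits that left out 1 library, aux stayed higher than control xRIP in 8 of 8 and tweek in 1 of 8.

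Signs turned only in uncalled values. For Pum xRIP against input, Dap160 was positive with DESeq2 size factors (0.41), library totals (0.17), DESeq2 on 3 groups (0.41), voom weights (0.067), and without Pum xRIP replicate 1 (0.06), Pum xRIP replicate 3 (0.10) or the pum input (0.19), and with 1 library left out it ranged from −0.41 to 0.19. EndoA was −1.50 and Eps-15 −0.27 with voom weights, and Eps-15 was −0.59 without Pum xRIP replicate 4 and up to 0.54 with another library left out. Cluster 2 of Eps-15 was positive with DESeq2 size factors (0.73), library totals (0.43), DESeq2 on 3 groups (0.73) and without Pum xRIP replicate 1 (0.05), 2 (0.13) or 3 (0.06), with a lowest value of −1.002 without Pum xRIP replicate 4. For Pum xRIP against control xRIP, Synj was 1.21 with voom weights, 0.04 without Pum xRIP replicate 1 and 0.97 without control xRIP replicate 2, with a lowest value of −0.98 among libraries left out.

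The replicate numbers share no stated batch, and deviations of same-numbered Pum xRIP and control xRIP libraries correlated at 0.0031 to 0.0246, so no pairing was used. With the replicate number as a block, 0 of the 7 genes were called, and 245 of 4776 genes were higher and 122 lower, against 270 and 131 without the block.

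Immunopurified libraries were shallower than the inputs and differed more among themselves, and most member clusters had no count in them. A change that missed the threshold was not shown to be absent.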
